A study of Homo sapiens with 6 samples.

Results

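The 10 genes described here are the 4 ID genes (ID1, ID2, ID3 and ID4) and 6 genes of the bone morphogenetic protein (BMP) pathway (BMP4, BMPR1A, BMPR2, SMAD1, SMAD5 and SMAD6), selected by symbol from 57773 Ensembl genes. Each symbol matched 1 ID of the count table, and all 10 passed the filter on low counts. All samples were poly-A RNA of U251, a long-established line of human glioblastoma cells. Dishes 1 to 3 of the PD-L1 group held a stable line overexpressing PD-L1 (the CD274 gene, which encodes the ligand of the T-cell protein PD-1) from a lentivirus, and dishes 1 to 3 of the Vector group its lentiviral vector control. All 6 dishes were grown in DMEM with 10% fetal bovine serum and harvested 12 h after passage. Each group was 1 stable line, and the labels say neither whether it was a clone nor which promoter drove the gene. The p-values measure the spread between dishes of a line, which may be technical, and not between independently made lines.

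BMP ligands such as BMP4 bind a complex of type I receptors, such as the protein of BMPR1A, and type II receptors, such as that of BMPR2. The receptors phosphorylate SMAD1 and SMAD5, which enter the nucleus with SMAD4 and switch on target genes, and ID1, ID2 and ID3 are among the best known of these. SMAD6 is an inhibitory SMAD and is itself induced by the pathway. ID proteins are helix-loop-helix proteins without a DNA-binding region: they pair with E proteins (TCF3, TCF4, TCF12) and keep them off the E-box sequence in DNA. In glioblastoma, ID1 is known from work on self-renewing stem-like cells, and BMP4 as a factor that drives such cells towards an astrocyte-like state.

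The ID genes that changed are introduced by their promoters, since 2 of them fell, 1 rose, and the 250 bases before each start can be set side by side. The windows are chr20:31605039-31605288 on the plus strand for ID1, chr1:23559502-23559751 on the minus strand for ID3 and chr2:8681806-8682055 on the plus strand for ID2, from RefSeq on GRCh38.p14. The deposited counts were made on hg19, so these positions are for the sequences alone. Capitals mark matches on both strands to CCAAT (the CCAAT box), to the TATA box in the form TATAAA, and to the E-box, which was searched as CANNTG.
ID1: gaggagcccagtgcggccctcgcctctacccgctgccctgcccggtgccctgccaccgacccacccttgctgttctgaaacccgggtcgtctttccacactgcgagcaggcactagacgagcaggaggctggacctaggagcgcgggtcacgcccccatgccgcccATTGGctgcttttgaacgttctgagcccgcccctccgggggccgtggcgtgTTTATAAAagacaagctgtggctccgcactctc
ID3: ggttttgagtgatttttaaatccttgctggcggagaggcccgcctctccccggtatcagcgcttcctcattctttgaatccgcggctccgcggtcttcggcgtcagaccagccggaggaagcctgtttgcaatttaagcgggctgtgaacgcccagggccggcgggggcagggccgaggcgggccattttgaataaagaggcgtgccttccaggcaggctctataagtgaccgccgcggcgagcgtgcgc
ID2: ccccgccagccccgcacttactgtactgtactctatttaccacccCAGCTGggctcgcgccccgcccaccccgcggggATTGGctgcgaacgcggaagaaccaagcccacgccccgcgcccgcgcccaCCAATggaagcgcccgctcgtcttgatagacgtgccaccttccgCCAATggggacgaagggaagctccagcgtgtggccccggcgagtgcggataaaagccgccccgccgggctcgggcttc
The ID1 window holds 1 CCAAT match and 2 overlapping TATAAA matches, 1 on each strand. The ID2 window holds 3 CCAAT matches and 1 E-box, and the ID3 window none of these motifs. The window of ID4, which is not among the genes that changed, holds 1 CCAAT match, 1 TATAAA match and 1 E-box. Among 35116 RefSeq windows of the same length, 32.0% hold CCAAT, 10.7% TATAAA and 61.8% an E-box. The GC-rich motif GGCGCC, which SMAD1 and SMAD5 can bind, is in 16.4% of the windows and in none of the ID1, ID2, ID3 and ID4 windows. GTCT, the short SMAD motif, is in 77.5% of the windows, with 3 matches for ID1, 2 for ID3 and 2 for ID2. The shares of G and C are 66.0% for ID1, 62.0% for ID3 and 69.2% for ID2. A motif match is a description of these letters and not of binding, and an absence covers these 250 bases alone.

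Total counts per dish ran from 15678989 to 22270509. CD274 averaged 1300 ± 61.4 CPM (counts scaled to library size, with TMM correction for composition) in PD-L1 dishes and 2.41 ± 0.97 CPM in Vector dishes (SD, n = 3 each), as the labels require, although the counts do not separate construct from endogenous gene. PD-L1 dish 3 stood apart from PD-L1 dishes 1 and 2: counts of dishes 1 and 2 differed by a chi-square of 2.84 per degree of freedom, those of dish 3 from each of them by 14.6 and 13.6. Pairs of Vector dishes gave 4.88 to 9.15. Of 15818 genes tested with edgeR's quasi-likelihood test, 8.75% passed an adjusted p of 0.05 (Benjamini-Hochberg, over all tested genes), 1.55% higher and 7.20% lower in PD-L1 dishes. Without PD-L1 dish 3, 21.6% passed. Of 8 glioma and astrocyte markers, 6 fell (GFAP, VIM, NES, SOX2, SOX9 and CD44), and the sum of all 8 was 513 to 659 CPM in PD-L1 dishes and 939 to 1105 CPM in Vector dishes. GFAP, the astrocyte filament protein, was low throughout, at 1.7 ± 0.22 CPM in PD-L1 dishes, against 3.18 ± 0.56 CPM in Vector dishes. The 4 leukocyte markers, of which 1 could be tested and did not pass, summed to 2.46 to 2.71 CPM in PD-L1 dishes, against 2.15 to 3.77 CPM in Vector dishes. The 3 endothelial markers found summed to 2.78 to 3.64 CPM in PD-L1 dishes, against 4.16 to 5.60 CPM in Vector dishes, with KDR and TEK lower, and the 4 epithelial markers, of which 0 passed, to 4.56 to 7.39 and 6.12 to 6.46 CPM. The 4 neuron markers, of which 0 passed, summed to 15.0 to 18.0 CPM in PD-L1 dishes, against 14.5 to 16.7 CPM in Vector dishes, and the 4 fibroblast markers to 30.3 to 33.0 and 31.8 to 39.9 CPM, with PDGFRA and DCN lower. No marker found was at 0 in every dish of a group. In RNA from whole dishes, fewer cells of a type and less RNA per cell cannot be told apart, and the part of these markers in the results on the ID genes was not tested.

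ID1 and ID3 were lower and ID2 was higher in PD-L1 dishes, while ID4 did not pass the test. So 1 of the 10 members rose, 2 fell and 7 did not pass, against 1.55% higher and 7.20% lower among all tested genes. The median log2 change (fold change of PD-L1 over Vector on the log2 scale) of the 10 was 0.05, and that of all tested genes 0.02. The groups did not overlap for 4 members, ID1, ID2, ID3 and SMAD1, which compares with 27.6% of all tested genes. DESeq2, by which 9.26% of genes passed, called the same 3 members, ID1, ID2 and ID3.

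ID1 (ENSG00000125968), an inhibitor of differentiation, stood at 129, 132 and 168 CPM in PD-L1 dishes 1 to 3 and at 265, 245 and 232 CPM in Vector dishes 1 to 3. All PD-L1 dishes lay below all Vector dishes, and PD-L1 dish 3 lay closest to them. ID1 averaged 143 ± 21.6 CPM in PD-L1 dishes, against 247 ± 16.5 CPM in Vector dishes (SD, n = 3 each), a log2 change of -0.79 ± 0.10 (SE) at an adjusted p of 3.33e-04 in edgeR. It was the largest fold change of the 10 members. Without PD-L1 dish 3 the log2 change was -0.92 with an adjusted p of 3.83e-09. The call held in all 15 alternatives run, with log2 changes from -0.92 to -0.72.

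ID3 (ENSG00000117318), its close relative, was lower in every PD-L1 dish as well. It stood at 176, 173 and 212 CPM in PD-L1 dishes 1 to 3 and at 315, 262 and 233 CPM in Vector dishes 1 to 3. For both genes PD-L1 dish 3 was the highest of its group and Vector dish 1 the highest of all, but for ID3 the groups came close, at 212 CPM in PD-L1 dish 3 and 233 CPM in Vector dish 3. The log2 change of ID3 was -0.53 ± 0.11 (SE) at an adjusted p of 0.00890 in edgeR. Without PD-L1 dish 3 it was -0.64, with an adjusted p of 0.00329. The call ended on removal of Vector dish 1, at a log2 change of -0.41 and an adjusted p of 0.0577.

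ID2 (ENSG00000115738), which also binds E proteins, went the other way by a smaller amount. The PD-L1 dishes stood at 102, 99.5 and 100.1 CPM and the Vector dishes at 80.2, 83.4 and 81.7 CPM. The spread within a group was 1.12% of the mean in PD-L1 and 1.95% in Vector dishes, the narrowest among the 10 members in each group. A spread from 3 dishes is itself uncertain. At 1518 to 2084 counts per dish, the sampling of reads alone gives a spread of about this size or larger. The narrow spread is therefore not read as a trait of ID2. The groups did not overlap for ID2. ID2 averaged 100.4 ± 1.13 CPM in PD-L1 dishes, against 81.8 ± 1.59 CPM in Vector dishes (SD, n = 3 each). The log2 change of 0.30 ± 0.07 (SE), or 1.23-fold, had an adjusted p of 0.0172 in edgeR. Without PD-L1 dish 3 the log2 change was again 0.30, with an adjusted p of 0.00259. The call was lost in 4 of the 6 fits that left out 1 dish: the adjusted p became 0.0881 on removal of PD-L1 dish 1, 0.0594 on removal of PD-L1 dish 2, 0.0878 on removal of Vector dish 1 and 0.0884 on removal of Vector dish 3. It was 0.0394 on removal of Vector dish 2, where the call held. The log2 change in the 4 fits without a call lay between 0.28 and 0.31. ID2-AS1, an antisense gene that shares 38 bases of exon with ID2 in GENCODE 29, held 17, 11 and 5 counts in PD-L1 dishes and 23, 5 and 7 in Vector dishes. ID2 itself held 1615 to 2084 counts in PD-L1 and 1518 to 1743 in Vector dishes, so the partner was small beside it. The processed pseudogene ID2B had 0 counts in every dish.

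ID4 (ENSG00000172201) stood at 176, 179 and 183 CPM in PD-L1 dishes 1 to 3 and at 179, 158 and 162 CPM in Vector dishes 1 to 3. The groups overlapped through Vector dish 1. The gene's log2 change was 0.11 ± 0.07 (SE), with a 95% interval of -0.05 to 0.26 and an adjusted p of 0.417 in edgeR.

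**Figure D1:**
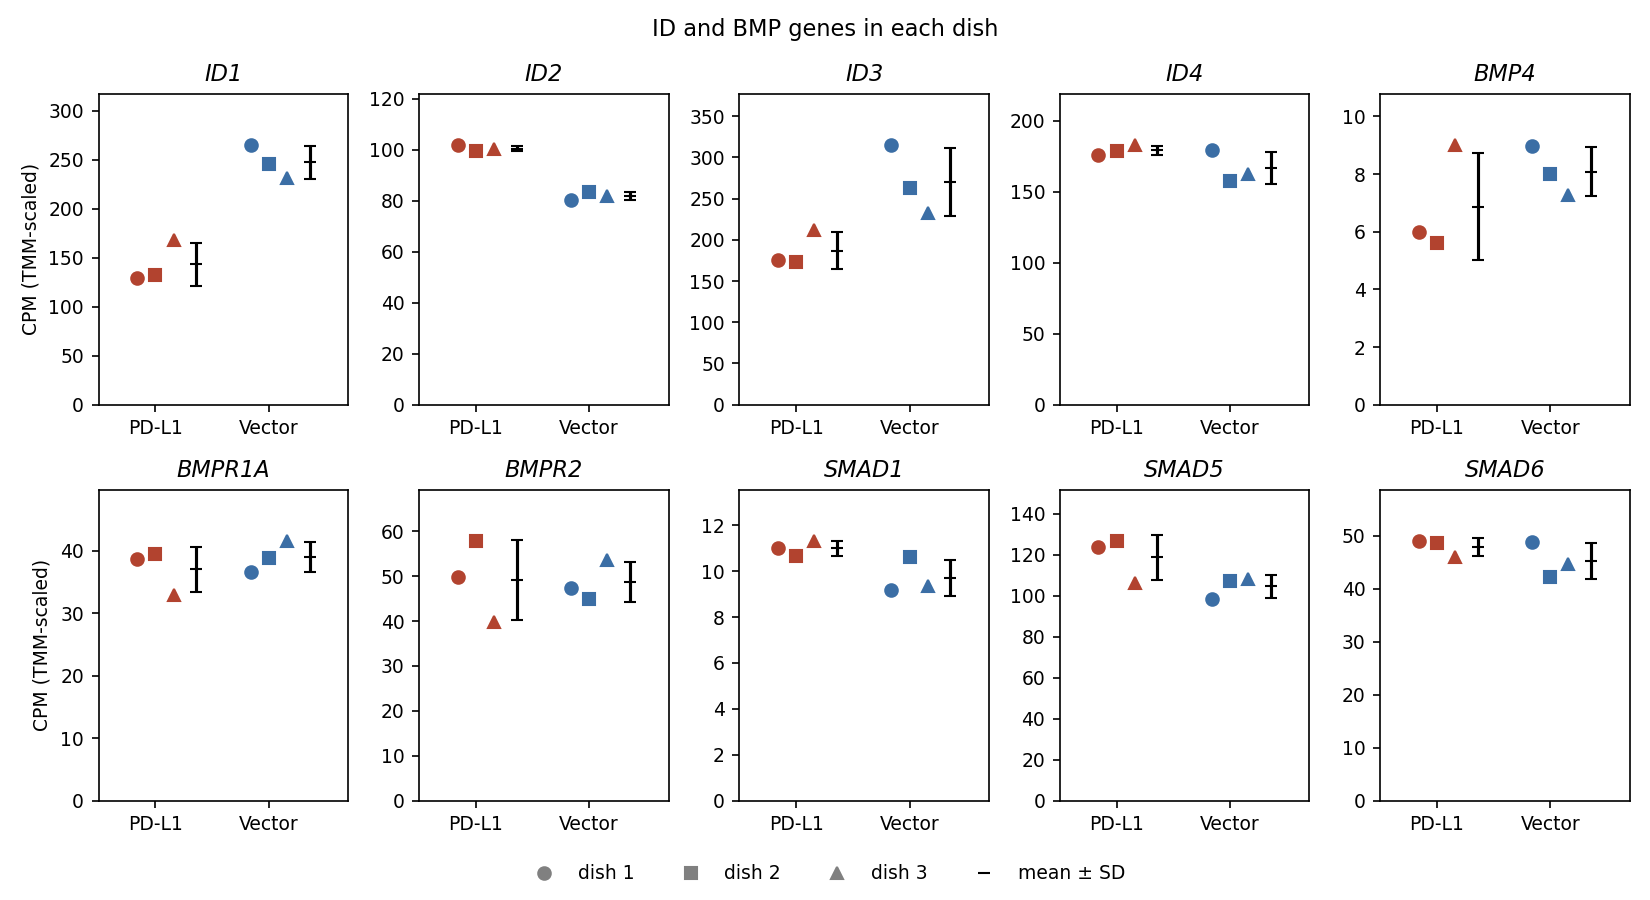
CPM (TMM-scaled, linear axes from 0) of the 10 genes in each dish, PD-L1 in red on the left and Vector in blue on the right, with dishes 1 to 3 as circle, square and triangle and black bars for the mean ± SD. ID1 lies at 129 to 168 CPM in PD-L1 dishes, against 232 to 265 CPM in Vector dishes, and ID2 at 99.5 to 102 CPM in PD-L1 dishes, against 80.2 to 83.4 CPM in Vector dishes.

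The ratio of ID2 to ID1 counts within a dish does not depend on how libraries are scaled, and gene length cancels from its difference between groups. The ratio was 0.787, 0.753 and 0.596 in PD-L1 dishes 1 to 3 and 0.303, 0.340 and 0.353 in Vector dishes 1 to 3. Every PD-L1 dish exceeded every Vector dish, and dish 3 was the lowest of the PD-L1 dishes. The log2 ratio was 1.09 higher in PD-L1 dishes (-0.50 ± 0.22 in PD-L1 and -1.59 ± 0.11 in Vector, SD, n = 3 each). For ID2 to ID3 the ratio was 0.579, 0.577 and 0.471 in PD-L1 dishes and 0.255, 0.318 and 0.351 in Vector dishes. That log2 ratio was 0.82 higher in PD-L1 dishes. Both ratios were chosen with the fold changes already known, and since the groups did not overlap for any of the 3 genes their separation was fixed by that choice, so they are given as a description with no test.

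Levels can be compared between genes per length of exon (CPM per kb of merged GENCODE 29 exons). Summed over the ID family, this level was 324, 324 and 378 CPM per kb in PD-L1 dishes 1 to 3 and 502, 450 and 424 CPM per kb in Vector dishes 1 to 3. ID1 made up 33.8 ± 1.99% of the family sum in PD-L1 and 43.7 ± 0.90% in Vector dishes (SD, n = 3 each). ID3 made up 30.4 ± 0.86% in PD-L1 and 32.6 ± 2.11% in Vector dishes. The share of ID4 was 22.4 ± 1.60% in PD-L1 and 15.5 ± 0.70% in Vector dishes, and that of ID2 13.4 ± 1.19% and 8.13 ± 0.79%. A larger share of ID4 in PD-L1 dishes thus went with a log2 change of its own that did not pass the test.

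**Figure D2:**
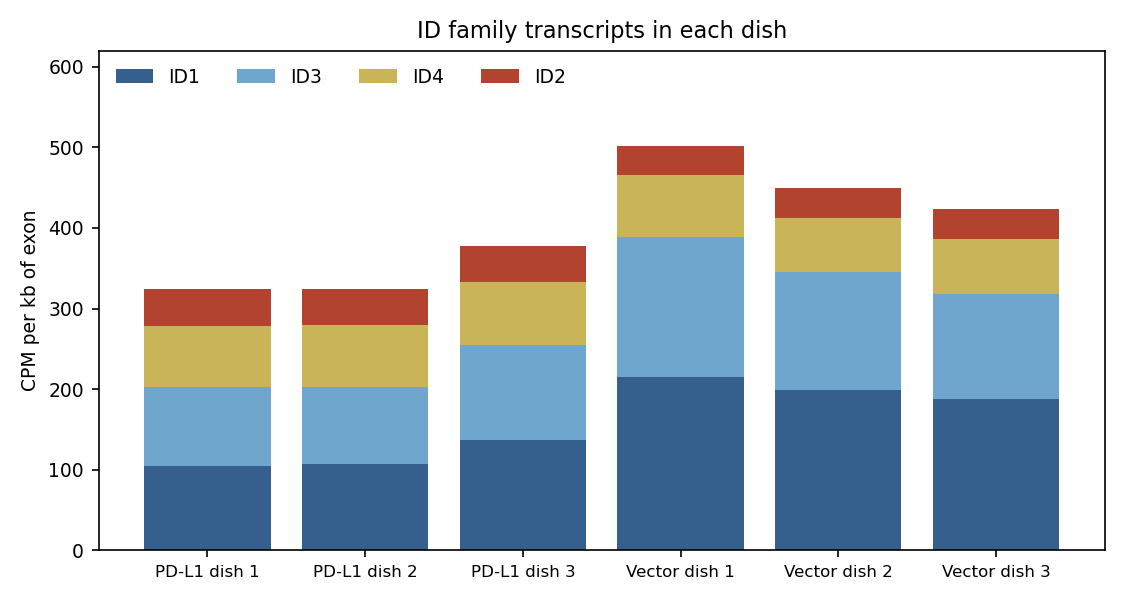
Stacked level (CPM per kb of exon, axis from 0) of ID1, ID3, ID4 and ID2, from bottom to top, in each PD-L1 and Vector dish. The bars reach 324 to 378 CPM per kb in PD-L1 dishes, against 424 to 502 CPM per kb in Vector dishes.

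The order of levels per kb was the same in both groups. It ran ID1, ID3, ID4, ID2, SMAD5, SMAD6, BMPR2, BMPR1A, BMP4 and SMAD1, from 116 CPM per kb for ID1 to 1.82 CPM per kb for SMAD1 in PD-L1 dishes, and from 200.5 to 1.60 CPM per kb in Vector dishes. In PD-L1 dishes ID1 and ID3 overlapped, at 116 ± 17.5 and 104 ± 12.4 CPM per kb. The neighbours BMPR2 and BMPR1A, BMPR1A and BMP4, and BMP4 and SMAD1 overlapped there as well. In Vector dishes the ranges of neighbours in the order did not overlap. Per length the ID transcripts were more abundant than those of the ligand, receptors and SMADs in both groups. The order depends on the merged exon length, which ran from 1233 bases for ID1 to 11900 bases for BMPR2. By CPM alone SMAD5 was above ID2, at 119 and 100.4 CPM in PD-L1 dishes and 105 and 81.8 CPM in Vector dishes.

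BMP4 (ENSG00000125378), the ligand among the members, was scarce, and in PD-L1 dishes it had the widest spread of the 10 members, 27.0% of its mean. It stood at 6.00, 5.61 and 8.99 CPM in PD-L1 dishes 1 to 3 and at 8.97, 8.02 and 7.27 CPM in Vector dishes 1 to 3. PD-L1 dishes 1 and 2 lay below all Vector dishes and PD-L1 dish 3 just above all of them. With all dishes the log2 change was -0.24 ± 0.17 (SE), with a 95% interval of -0.61 to 0.14 and an adjusted p of 0.445 in edgeR. Without PD-L1 dish 3 it was -0.48 with an adjusted p of 0.0277 in edgeR, so that dish decides the call. In that setting 21.6% of all tested genes passed, against 8.75% with all dishes.

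The receptor genes did not pass the test. BMPR1A (ENSG00000107779), a type I receptor, stood at 38.7, 39.4 and 32.9 CPM in PD-L1 dishes 1 to 3 and at 36.7, 38.9 and 41.5 CPM in Vector dishes 1 to 3. The groups overlapped, and PD-L1 dish 3 was the lowest dish. Its log2 change was -0.08, with a 95% interval of -0.28 to 0.12 and an adjusted p of 0.668 in edgeR. BMPR2 (ENSG00000204217), the type II receptor, stood at 49.8, 57.7 and 39.8 CPM in PD-L1 dishes and at 47.4, 44.97 and 53.7 CPM in Vector dishes. PD-L1 dishes 2 and 3 were the highest and lowest of all 6. The log2 change of BMPR2 was 0.01, with a 95% interval of -0.24 to 0.27 and an adjusted p of 0.965 in edgeR, and its sign changed between alternatives. The pseudogenes BMPR1AP1 and BMPR1AP2 held at most 10 counts in a dish.

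SMAD1 and SMAD5, the transcription factors phosphorylated by BMP receptors, did not pass either. SMAD1 (ENSG00000170365) stood at 11.03, 10.66 and 11.3 CPM in PD-L1 dishes 1 to 3 and at 9.16, 10.61 and 9.37 CPM in Vector dishes 1 to 3. The groups were separate by a small margin, at 10.66 CPM in PD-L1 dish 2 and 10.61 CPM in Vector dish 2. The log2 change of SMAD1 was 0.18 ± 0.12 (SE) at an adjusted p of 0.380 in edgeR. SMAD5 (ENSG00000113658) stood at 124, 127 and 106 CPM in PD-L1 dishes and at 98.3, 107 and 108 CPM in Vector dishes. PD-L1 dish 3 fell within the Vector range, and dishes 1 and 2 lay above it. The log2 change of SMAD5 was 0.18 ± 0.08 (SE) at an adjusted p of 0.198 in edgeR. Without PD-L1 dish 3, a setting in which 21.6% of genes passed, it was 0.26 with an adjusted p of 0.00839. Antisense genes that share exon bases with SMAD1 and SMAD5, namely SMAD1-AS1 and SMAD5-AS1, held at most 2 counts in a dish.

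SMAD6 (ENSG00000137834), the inhibitory SMAD, stood at 48.9, 48.7 and 45.9 CPM in PD-L1 dishes 1 to 3 and at 48.8, 42.1 and 44.6 CPM in Vector dishes 1 to 3. The groups overlapped. The gene's log2 change was 0.08 ± 0.08 (SE) at an adjusted p of 0.591 in edgeR. An offset for GC content and exon length, a setting in which 12.2% of genes passed, gave 0.22 with an adjusted p of 0.0424.

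**Figure D3:**
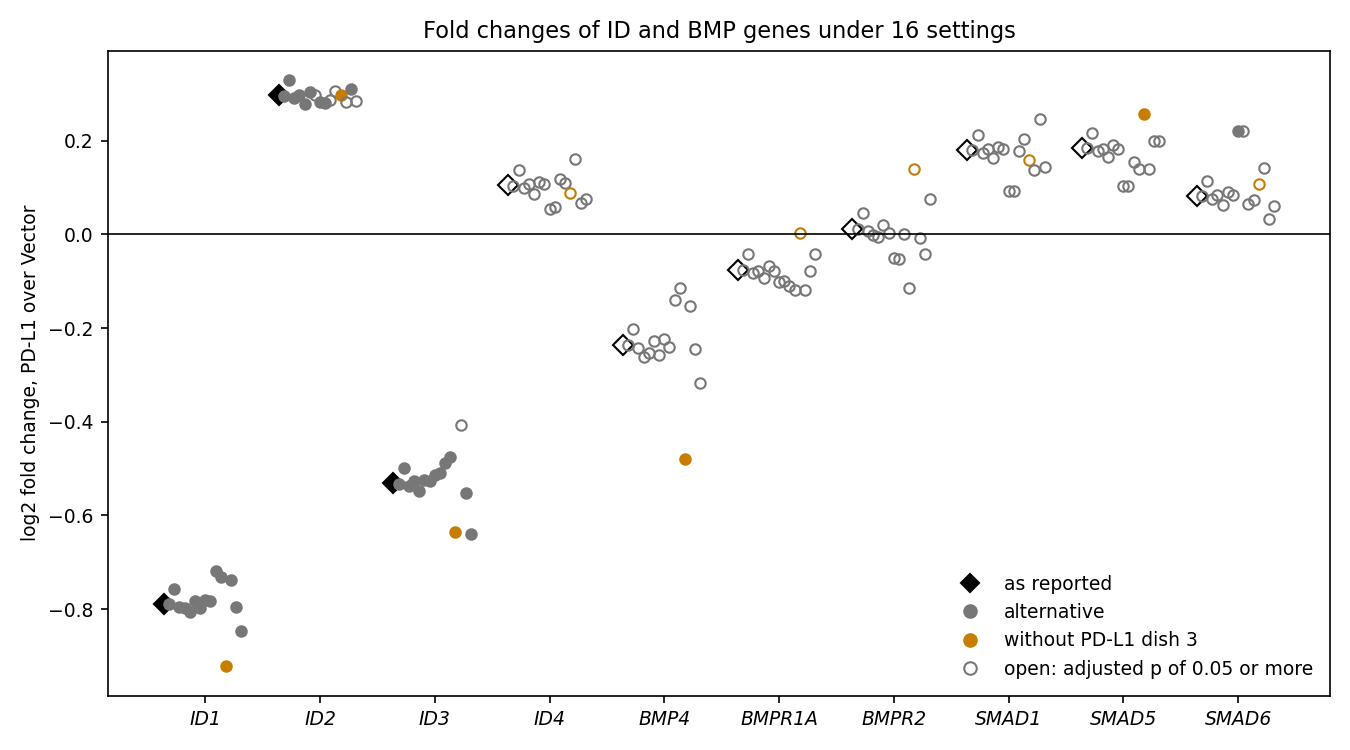
Log2 change (PD-L1 over Vector) of each of the 10 genes as reported (diamonds) and in 15 alternatives (circles, orange without PD-L1 dish 3), filled where the adjusted p was under 0.05. ID1 spans -0.92 to -0.72 with all points filled, ID2 lies at 0.28 to 0.33 with 5 open circles, and BMP4 is filled only without PD-L1 dish 3.

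Other genes of the pathway were taken from 6 lists of 65 symbols in all, of which 64 were in the count table and 53 passed the filter on low counts. Of these 53, 2 rose and 8 fell, against 1.55% and 7.20% of all tested genes. Their median log2 change was -0.03. Most of the lower genes, 5 of 8, were in the list of antagonists and modulators. The lists were chosen with earlier results of these data known, so the counts per list are given as a description with no test.

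Among 13 tested antagonists and modulators 5 fell and 0 rose, against 7.20% and 1.55% of all tested genes. Their median log2 change was -0.32. KCP went the other way without passing, at a log2 change of 0.61 and an adjusted p of 0.0817 in edgeR. Its groups did not overlap, and it passed with the offset for GC content and length, with or without the replicate number as a block. KCP held 60, 44 and 69 counts in PD-L1 dishes and 51, 40 and 33 in Vector dishes. It shares 187 bases of exon with ATP6V1F on the opposite strand, which held 1236 to 1831 counts in PD-L1 dishes and 1628 to 2127 in Vector dishes. The part of ATP6V1F reads in the KCP counts was not tested. CHRDL1, chordin-like 1, a secreted BMP antagonist, stood at 9.37, 9.74 and 7.71 CPM in PD-L1 dishes 1 to 3 and at 14.5, 16.4 and 15.5 CPM in Vector dishes 1 to 3. The groups were well apart, and PD-L1 dish 3 was here the farthest from the Vector dishes. Its log2 change was -0.79 ± 0.12 (SE) at an adjusted p of 0.00132 in edgeR. CRIM1, a transmembrane protein that binds BMPs, stood at 53.1, 59.3 and 56.7 CPM in PD-L1 dishes and at 85.6, 79.3 and 78.5 CPM in Vector dishes. The groups did not overlap for CRIM1, and the log2 change was -0.53 ± 0.08 (SE) at an adjusted p of 0.00106. FSTL1, a secreted follistatin-like protein that can bind BMP4, stood at 160, 168 and 165 CPM in PD-L1 dishes and at 244, 204 and 208 CPM in Vector dishes. All PD-L1 dishes were again lower, and the adjusted p was 0.0065. The CHRDL1, CRIM1 and FSTL1 calls held in all 15 alternatives.

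FST, or follistatin, which binds activins and, more weakly, BMPs, stood at 7.17, 7.39 and 7.87 CPM in PD-L1 dishes 1 to 3 and at 9.20, 13.5 and 12.0 CPM in Vector dishes 1 to 3. The groups did not overlap, and the log2 change was -0.63 ± 0.15 (SE) at an adjusted p of 0.0173 in edgeR. FSTL3, a relative of follistatin, stood at 52.8, 64.8 and 96.3 CPM in PD-L1 dishes and at 138, 118 and 115 CPM in Vector dishes. PD-L1 dish 3 lay nearest the Vector dishes. The gene's log2 change was -0.80 ± 0.20 (SE) at an adjusted p of 0.0468. The FST call ended on removal of any of PD-L1 dishes 1 and 2 and Vector dishes 2 and 3. The FSTL3 call ended when any of PD-L1 dish 2, Vector dish 1 and Vector dish 3 was removed, with upper-quartile scaling and with no filter on low counts. The classical antagonists NOG (noggin) and CHRD (chordin) did not pass, at log2 changes of -0.10 and 0.07 at adjusted p of 0.815 and 0.778, and NOG averaged 4.33 ± 0.71 CPM in PD-L1 dishes, against 4.60 ± 1.17 CPM in Vector dishes. BAMBI, a decoy receptor that is also a BMP target, had a log2 change of 0.17 with an adjusted p of 0.320. GREM1 and CHRDL2 held at most 3 counts in a dish and were not tested.

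**Figure D4:**
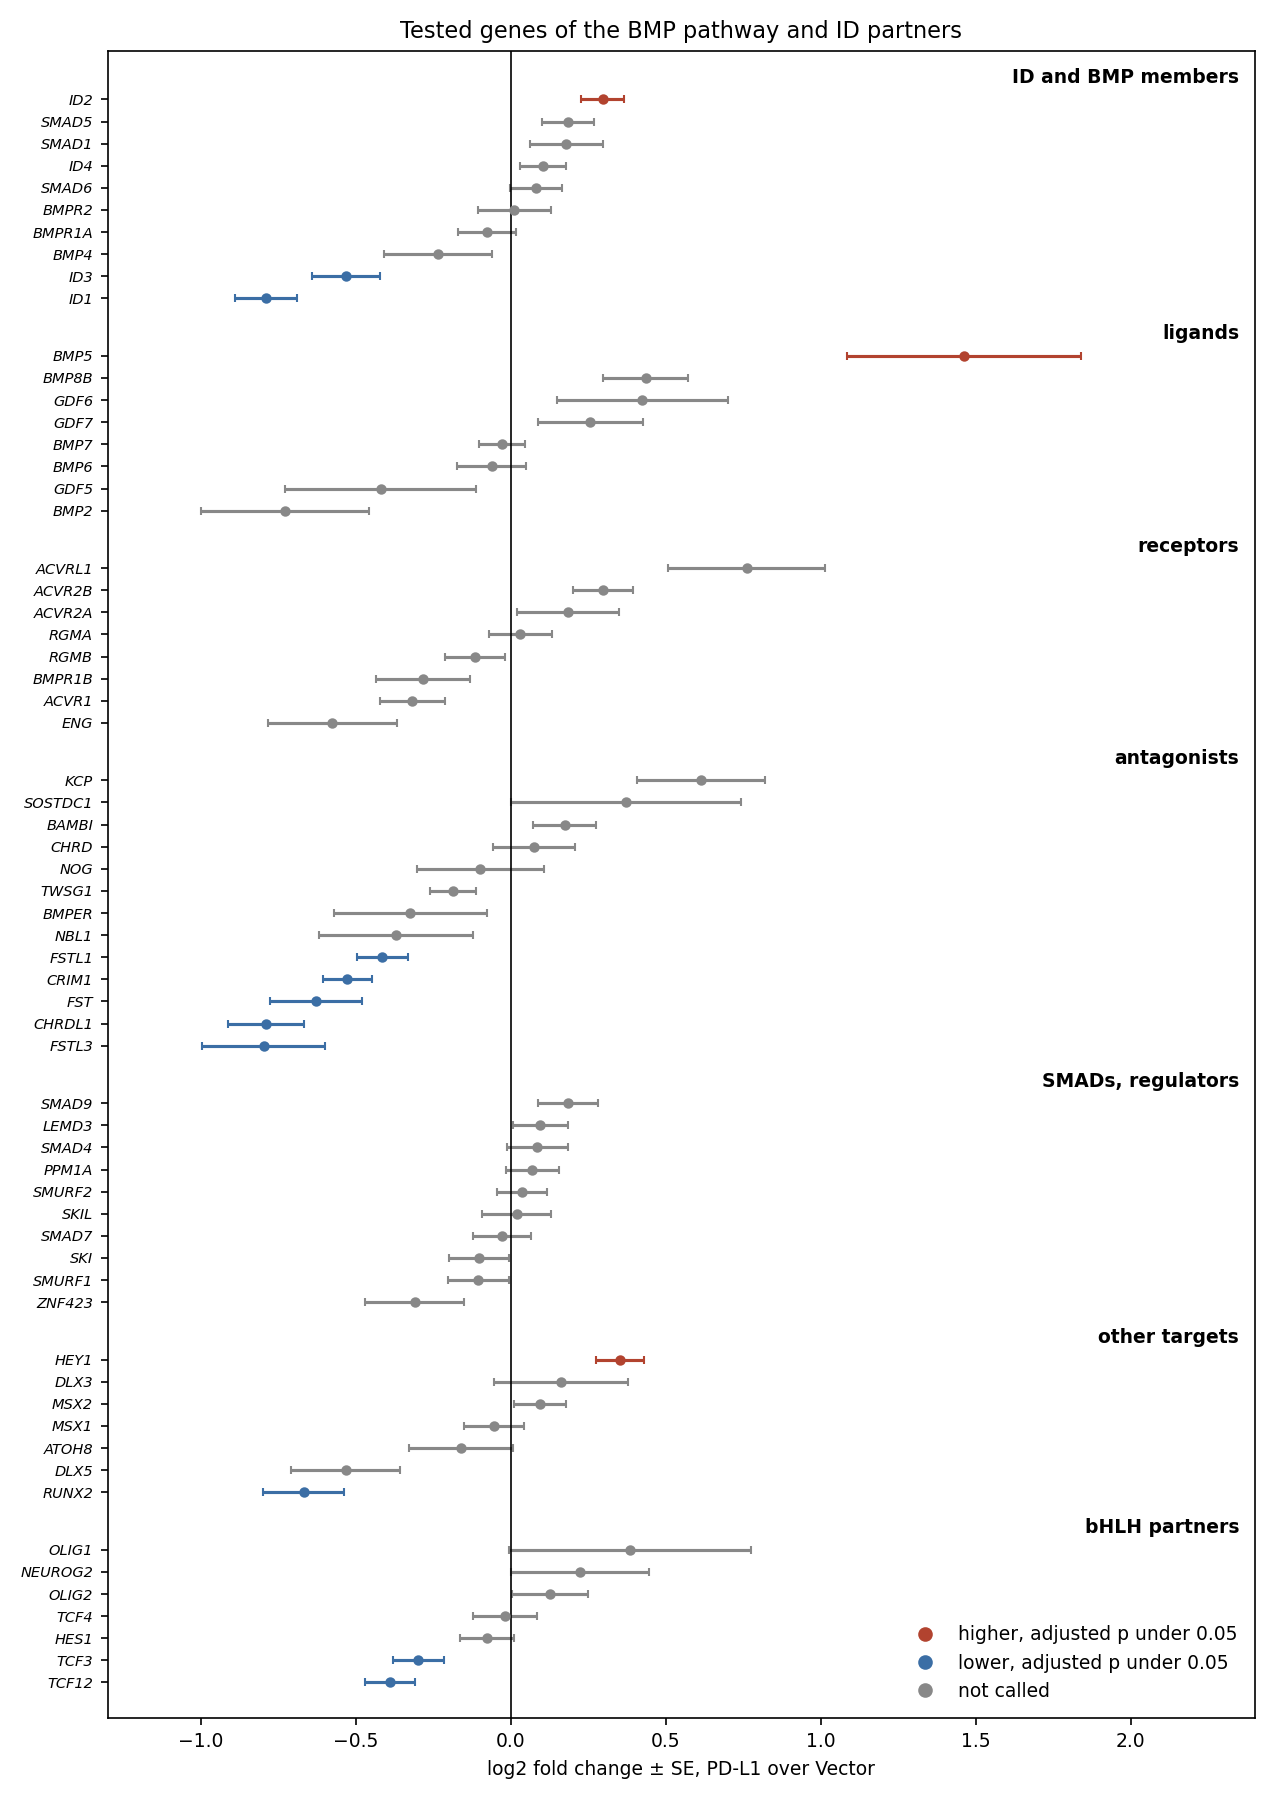
Log2 change (PD-L1 over Vector, x axis) with SE bars for the 10 members and the tested genes of 6 pathway lists, in red where higher, blue where lower and grey where not called. Of the 13 antagonists and modulators 5 are blue, FSTL3, CHRDL1, FST, CRIM1 and FSTL1, while the 8 receptors and the 10 SMADs and regulators are all grey.

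Of 8 tested ligands 1 rose and 0 fell, against 1.55% and 7.20% of all tested genes. BMP7 was the most abundant, at 65.2, 67.2 and 70.4 CPM in PD-L1 dishes 1 to 3 and at 69.4, 66.8 and 70.5 CPM in Vector dishes 1 to 3. These values overlapped throughout, with a log2 change of -0.03 ± 0.07 (SE) and an adjusted p of 0.861 in edgeR. BMP5 rose with few reads, at 23, 14 and 24 counts in PD-L1 dishes and 8, 12 and 4 counts in Vector dishes. The log2 change of BMP5 was 1.46 ± 0.38 (SE) at an adjusted p of 0.0275, and the call was lost when PD-L1 dish 1 or either of Vector dishes 1 and 3 was left out. BMP2, close to BMP4 in sequence, had a log2 change of -0.73 with an adjusted p of 0.121. It passed as lower in 4 of 14 alternatives. These were no filter on low counts, the replicate number as a block, and removal of PD-L1 dish 3 or of Vector dish 2. BMP3, BMP8A, BMP10 and BMP15 had too few reads to be tested, and BMP15 had 0 counts.

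Of 8 tested receptors and co-receptors, 0 passed in edgeR, 0 in DESeq2 and 4 at an unadjusted p under 0.05 in edgeR, which 23.6% of all tested genes met, and 5 had groups that did not overlap, against 27.6% of all tested genes. ACVR2B, a type II receptor shared with activins and the most abundant of the list by CPM, stood at 68.0, 77.9 and 58.9 CPM in PD-L1 dishes 1 to 3 and at 57.0, 53.4 and 56.1 CPM in Vector dishes 1 to 3. All PD-L1 dishes were higher, dish 3 by little. Its adjusted p was 0.0746 with a log2 change of 0.30. ACVR1, a type I BMP receptor, had 12.4 ± 0.81 CPM in PD-L1 dishes, against 15.5 ± 0.37 CPM in Vector dishes (SD, n = 3 each), with an adjusted p of 0.0791 in edgeR. Among other settings, both passed with the offset for GC content and length and without PD-L1 dish 3. In these settings 12.2% and 21.6% of all tested genes passed.

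Among the SMADs and intracellular regulators, 0 of 10 tested genes passed in edgeR, 0 in DESeq2 and 0 at an unadjusted p under 0.05, against 23.6% of all tested genes at that unadjusted p. Their median log2 change was 0.03, and for 0 of the 10 were the groups separate, against 27.6% of all tested genes. SKI, a corepressor of SMADs, was the most abundant by CPM, at 116, 128 and 104 CPM in PD-L1 dishes 1 to 3 and at 134, 108 and 132 CPM in Vector dishes 1 to 3. SMAD4, the common partner of all receptor-activated SMADs, had 31.9 ± 3.46 CPM in PD-L1 dishes, against 30.0 ± 1.82 CPM in Vector dishes (SD, n = 3 each). SMAD7, an inhibitory SMAD, had 37.0 ± 3.62 CPM in PD-L1 dishes, against 37.7 ± 2.64 CPM in Vector dishes.

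Of 7 other target genes 1 rose and 1 fell, against 1.55% and 7.20% of all tested genes. HEY1, a transcriptional repressor induced by BMP and Notch signals, stood at 154, 156 and 139 CPM in PD-L1 dishes 1 to 3 and at 115, 113 and 124 CPM in Vector dishes 1 to 3. The groups did not overlap, and the log2 change was 0.35 ± 0.08 (SE) at an adjusted p of 0.0116 in edgeR. The HEY1 call was lost when PD-L1 dish 1, PD-L1 dish 2 or Vector dish 1 was removed. RUNX2, the transcription factor of bone formation, stood at 7.76, 7.76 and 6.75 CPM in PD-L1 dishes and at 12.9, 10.3 and 12.1 CPM in Vector dishes. Its groups were separate as well, with a log2 change of -0.67 ± 0.13 (SE) and an adjusted p of 0.00631, and the call held in all 15 alternatives. MSX1 and MSX2, homeobox targets of BMP, had log2 changes of -0.05 and 0.09 at adjusted p of 0.781 and 0.534.

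The proteins that ID proteins bind were tested through 7 basic helix-loop-helix genes. Of these 2 fell and 0 rose, against 7.20% and 1.55% of all tested genes. TCF12, an E protein, stood at 64.1, 66.4 and 58.3 CPM in PD-L1 dishes 1 to 3 and at 86.2, 77.5 and 83.4 CPM in Vector dishes 1 to 3. The dishes of the groups did not overlap. Its log2 change was -0.39 ± 0.08 (SE) at an adjusted p of 0.00891 in edgeR, and 0.0574 without Vector dish 1. TCF3, the E protein with the most reads, stood at 171, 187 and 201 CPM in PD-L1 dishes and at 247, 214 and 226 CPM in Vector dishes. The gene's log2 change of -0.30 ± 0.08 (SE) had an adjusted p of 0.0383, and the call was lost in 8 of 15 alternatives, among them upper-quartile scaling, the offset for GC content and length, and removal of either of PD-L1 dishes 1 and 2 or of Vector dishes 1 and 3. TCF4, the remaining E protein, did not pass, at 34.4 ± 4.75 CPM in PD-L1 dishes, against 34.8 ± 1.98 CPM in Vector dishes (SD, n = 3 each). OLIG2, a glial lineage factor, had 9.44 ± 0.87 CPM in PD-L1 dishes, against 8.62 ± 0.06 CPM in Vector dishes, with an adjusted p of 0.566. NEUROG1 and NEUROD1, factors of neuron formation, had at most 1 count in any dish and were not tested.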

How the data were processed

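RNA was measured in 6 dishes, 3 of each group. The file deposited by the authors gives raw whole-number counts for Ensembl genes, with 1 column for each dish. Per the submitters' processing notes, CASAVA 1.8, STAR 2.5.1b, HTSeq 0.6.0 and hg19 were used. Which annotation, strand setting and filters they used is unstated here. The library kit named in the labels does not mark strand. The deposited normalized counts were not used.

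Raw counts were tested in R 4.3.3 with edgeR 4.0.16 (filterByExpr, TMM, robust glmQLFit, glmQLFTest, no covariates). SEs were derived from the F statistic of each gene, and 95% intervals from the t distribution with the fitted degrees of freedom. Gene symbols were looked up by ID in a name table and in GENCODE 29 (GRCh38), which also gave exon lengths, GC content and overlaps. The members and lists were chosen with earlier results of these data known. All members and list genes could be named, with dish values for called genes and the most abundant gene of a list. BAMBI, KCP, the MSX genes, BMP2, ACVR1, SMAD4, SMAD7, NOG and CHRD are further list genes. The genes closest to each ID gene had a mean of at least 5 CPM and the smallest root mean square difference of centred log2 CPM (prior count 2). Promoter sequences are those of RefSeq. The list symbol GDF2 and the marker PECAM1 had no matching ID. Alternatives were DESeq2 1.42.0, limma-voom (limma 3.58.1), other scalings and filters, an offset for GC content and length (splines with 5 degrees of freedom), the replicate number as a block, each dish left out and an adjusted p of 0.01. A count of 3 corresponds to 0.138 to 0.185 CPM. Python 3.11.15 was used for tables and plots.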

Additional observations from a re-analysis of the deposited data

How the results depend on the processing

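ID1, ID2, ID3, ID4, BMP4, SMAD1, SMAD5 and SMAD6 kept their direction in all 15 alternatives, and 133 of 150 member results kept both direction and call. BMPR1A, never called, was 0.0019 without PD-L1 dish 3 and lay between -0.12 and 0.0019 over the fits without 1 dish. BMPR2, never called, was -0.0010 with limma-voom, -0.0063 without a low-count filter, -0.051 with the GC and length offset, -0.053 with that offset and the replicate block, and -0.11 to 0.14 with 1 dish left out (the cause was not tested).

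The number of members higher, 1 as reported, was 0 with the replicate block (ID2 at an adjusted p of 0.0796), 2 with the GC and length offset, 0 at an adjusted p of 0.01 and 0 to 2 with 1 dish left out. Members lower numbered 1 to 3 with 1 dish left out. Other pathway genes higher, 2 as reported, were 4 with upper-quartile scaling, 1 with DESeq2 and 1 at a mean of at least 5 CPM. BMP5 had no adjusted p with DESeq2 and lay under that mean, so its call was not tested in either setting. Higher genes numbered 6 with the GC and length offset, 0 at an adjusted p of 0.01 and 0 to 6 with 1 dish left out. Other pathway genes lower, 8 as reported, were 5 at 0.01 and 5 to 12 with 1 dish left out. Over all genes, 1384 were called, 530 at 0.01, and 545 (without Vector dish 1) to 3512 (without PD-L1 dish 3) with 1 dish left out, with 641 without PD-L1 dish 1 and 745 without PD-L1 dish 2. The log2 ratio of ID2 to ID1 was 1.02 to 1.22 with 1 dish left out, against 1.09 as reported, and that of ID2 to ID3 0.69 to 0.92, against 0.82.

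The shared replicate numbers were not found to pair dishes: deviations of same-numbered dishes correlated at -0.21, -0.05 and -0.19, and no dish correlated best with the dish of its own number. The BMP5 call was also lost with the GC and length offset combined with the replicate block. Depth limits the scarce genes, such as BMP5.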

Other observations

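The genes closest in pattern to each ID gene over the 6 dishes, among 11394 genes with a mean of at least 5 CPM, are given by the root mean square difference of their centred log2 CPM. For ID1 they were ANXA2 (0.03), an annexin, SDC4 (0.04), a heparan sulfate proteoglycan of the cell surface, and LMNA (0.05), the gene of the nuclear lamins A and C. ANXA2 averaged 1173 ± 192.5 CPM in PD-L1 dishes, against 2043 ± 204 CPM in Vector dishes, SDC4 73.0 ± 10.5 and 121 ± 9.52 CPM, and LMNA 238 ± 42.2 and 412 ± 34.6 CPM (SD, n = 3 each). For ID3 they were NPC2 (0.03), a cholesterol-binding protein of the lysosome, ENSG00000250588 (0.04), which has no symbol here, and CUEDC1 (0.05). NPC2 averaged 49.3 ± 5.97 CPM in PD-L1 dishes, against 73.6 ± 11.2 CPM in Vector dishes.

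For ID2 the closest genes were IFNGR1 (0.02), a chain of the interferon gamma receptor, ZFAND4 (0.03) and ZNF394 (0.03). IFNGR1 averaged 63.7 ± 0.38 CPM in PD-L1 dishes, against 53.2 ± 0.80 CPM in Vector dishes. ZFAND4 averaged 11.05 ± 0.09 and 9.18 ± 0.07 CPM, and ZNF394 18.0 ± 0.51 and 14.6 ± 0.22 CPM, in the same order. For ID4 the closest genes were SAP30L (0.02), ENTR1 (0.03) and ZFP90 (0.03). Closeness is a description of these 6 dishes, which share libraries and group. These genes were picked by their dish values, so their differences between groups follow from that choice, and no test of them is given.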
